A study of Macaca fascicularis with 6 samples.

Results

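The 10 genes described here form the core of the circadian clock and its best known outputs: CLOCK, ARNTL (also called BMAL1), PER1, PER2, PER3, CRY1, CRY2, NR1D1, NR1D2 and DBP. They were chosen by name, from the gene for which a probe set was designed or, where no such name was recorded, from the symbol in the array's annotation. They are 10 of 21569 gene names on the array, predicted genes included, and they were covered by 21 of its 52706 probe sets, control probe sets left out.

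Left ventricular free wall of male cynomolgus monkeys aged 4 to 6 years was compared between 4 intact animals (animals 11, 12, 13 and 14, not operated) and 2 animals with chronic atrioventricular block (animals 2 and 8), with 1 Affymetrix rhesus array per animal. The block hearts were taken 8 months after the intervention from animals that had also been challenged repeatedly with dl-sotalol, had been given moxifloxacin and had developed torsade de pointes, so the block, the drugs and the arrhythmia cannot be told apart in them. These animals had been picked as those with the most frequent torsade de pointes, which limits them as a model of block in general. All animals were anesthetized with thiopental before the heart was excised, and a transmural specimen was used. The animals were housed on a light-dark cycle, but the sources used here do not give the hour at which each heart was excised. A difference in clock gene level between the groups therefore cannot be told apart from a difference in sampling hour. Because the specimens hold several cell types, fewer cells of a type and less RNA per cell cannot be told apart either.

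The clock is a feedback loop of transcription that runs in nearly every cell, cardiomyocytes included. CLOCK and ARNTL pair on E-box sequences and switch on the PER and CRY genes, whose proteins return to the nucleus and silence that pair. The same pair drives NR1D1 and NR1D2, nuclear receptors that repress ARNTL, and DBP, a transcription factor that carries the rhythm to other genes. In rodent hearts the loop is known to time lipid and glucose use, ion channel expression and heart rate.

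The deposited signals were on a linear scale and had not been brought to 1 level, with 2% trimmed means from 75.1 to 88.2 on the intact arrays, of 54.6 on the array of animal 2 and of 73.5 on that of animal 8. They were scaled to a common trimmed mean, and all signals below are on that scale, listed in the order of animals 11, 12, 13 and 14 for the intact group and of animals 2 and 8 for the block group. The call of Present, Marginal or Absent that MAS5 gives to each probe set says whether its matched probes were brighter than their mismatched partners. A probe set was tested when it was Present on 2 or more of the 6 arrays, which 22577 were. The GAPDH 3' over 5' signal ratio, which grows as RNA copies get shorter, lay between 2.17 and 2.65 in the intact hearts and was 5.05 in animal 2 and 3.05 in animal 8. The same ratio for ACTB was higher on every array, at 7.85 to 10.9 in the intact hearts. It was 11.6 in animal 2 and, within the intact range, 8.98 in animal 8. Of 8 markers of ventricular cardiomyocytes 7 were measured, and all 7 were Present in all 6 hearts. MYL2, the regulatory myosin light chain of the ventricle, stood at 13905 to 16331 among intact hearts, 20043 in animal 2 and 15648 in animal 8. Of the 7 markers 6 were higher with block, none past the adjusted test (limma), and for TTN both block hearts (1423 and 1554) were above all intact hearts (869 to 1335). That is 1 of 7 markers, beside 8.61% of all probe sets tested. With limma 5 probe sets passed an adjusted p of 0.05 (0.0221% of those tested), 4 of them lower (0.0177%) and 1 higher (0.00443%) with block, and 0 of the clock genes were among them.

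Of the 21 clock gene probe sets, 11 were Absent on all 6 arrays, 6 were Present on all 6, and 9 were tested. These 9 stood for 8 genes, and for 7 of them the tested probe set was also the brightest of the gene. CLOCK and ARNTL had no tested probe set.

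The activating pair was below detection. The brighter CLOCK probe set (MmugDNA.24651.1.S1_at, chr5:73962599-73963174 on the plus strand of the rhesus build Mmul_051212) gave intact signals of 7.21, 23.9, 15.2 and 5.60 and block signals of 19.9 and 21.9. Every one of these was called Absent, although 16 of its probes match a transcript in the annotation. The other CLOCK probe set reached 4.07 at most. The brightest of the 3 ARNTL probe sets (MmugDNA.43006.1.S1_at) lay between 2.21 and 22.2 among intact hearts and read 10.6 and 13.6 with block, again with every call Absent. Another ARNTL probe set, of which 16 probes match a transcript, read 29.1 in animal 2 and at most 11.9 elsewhere. Signals of this size carry no order between hearts, so neither activator could be compared. How far sequence differences between rhesus and cynomolgus monkeys lower such signals was not tested.

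PER1, a repressor whose transcript is switched on by the CLOCK and ARNTL pair and also by glucocorticoids, gave the largest difference of the PER genes. Its signals (MmugDNA.1526.1.S1_at, chr16:7900544-7901119, minus strand) were 264.5 in animal 11, 270.9 in animal 12, 381 in animal 13 and 233 in animal 14, against 143 in animal 2 and 207 in animal 8. Both block hearts lay below all 4 intact hearts, and animal 13 stood highest. The mean was 287 ± 64.6 (SD, n = 4) without and 175 ± 45.5 (SD, n = 2) with block, and the means of log2 signals differed by a fold of 0.608. The log2 difference was -0.72 with a standard error of 0.25, and it did not pass the test over all probe sets (limma, adjusted p = 0.499, unadjusted p = 0.017). Without animal 2 it was -0.45 (limma, unadjusted p = 0.172), and without animal 13, the highest intact heart, -0.57 (limma, unadjusted p = 0.0344). The other PER1 probe set was Absent throughout, between 15.1 and 35.9.

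PER3, the PER gene with the weakest known role in keeping the rhythm in mice, was measured by a probe set (MmuSTS.3620.1.S1_at, chr1:10874883-10875478, plus strand) for which the annotation assigns no transcript. The intact hearts read 131.8, 142.9, 126.3 and 136.3, the block hearts 94.5 and 120.6. The 4 intact hearts were close together at 134 ± 7.03 (SD, n = 4) and both block hearts fell outside them on the low side, animal 8 only just. The log2 difference of -0.33 (standard error 0.19) did not pass the test (limma, adjusted p = 0.685), and was -0.15 without animal 2 and -0.51 without animal 8. The remaining 2 PER3 probe sets were Absent on all arrays.

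PER2, whose loss shortens or abolishes the rhythm in mice, was dim. Its tested probe set (MmugDNA.41285.1.S1_s_at) was Present on all 6 arrays, but the annotation notes cross-hybridization for it and aligns it with an identity of 86.3%. The intact signals were 23.3, 37.6, 21.2 and 39.4, the block signals 37.1 and 27.2. The groups overlapped fully, with both block hearts inside the intact range, and the log2 difference was 0.12 with a standard error of 0.36 (limma, adjusted p = 0.945). Its sign turned when animal 2 or animal 13 was left out.

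The CRY genes encode the partners of the PER proteins that carry most of the repression. CRY1 (MmuSTS.3962.1.S1_at, chr11:108062966-108063576, minus strand) read 312, 264.4, 222 and 238 without and 265 and 274 with block. Both block hearts lay inside the intact range, and the log2 difference was 0.07 with a standard error of 0.19 (limma, adjusted p = 0.940). CRY2 (MmugDNA.41734.1.S1_at, chr14:26250558-26251118, minus strand) read 305, 275, 272 and 257 without block, 212 in animal 2 and 293 in animal 8. Only animal 2 lay below the intact hearts, and the log2 difference of -0.15 (standard error 0.19; limma, adjusted p = 0.864) turned to 0.08 without that animal.

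NR1D2 (REV-ERBβ), a heme-binding nuclear receptor that represses transcription, gave the largest difference of the 8 genes tested. Its brightest probe set (MmugDNA.33512.1.S1_at, for which the annotation gives no genome position and no matching transcript) read 745 in animal 11, 874 in animal 12, 753 in animal 13 and 705 in animal 14. In animal 2 it read 327 and in animal 8 it read 537. The intact hearts agreed within a ratio of 1.24 between the highest and the lowest, and both block hearts were below all of them. The mean was 769 ± 72.7 (SD, n = 4) without and 432 ± 149 (SD, n = 2) with block, and the means of log2 signals differed by a fold of 0.546. The log2 difference was -0.87 with a standard error of 0.22, and with an adjusted p of 0.354 (limma, unadjusted p = 0.00295) it did not pass. It ranked 188th by p among the probe sets tested. Without animal 2, the array with the highest GAPDH ratio, it was -0.51 (limma, unadjusted p = 0.0398, adjusted p = 0.667), and without animal 8 it was -1.23 (limma, adjusted p = 0.155).

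A second NR1D2 probe set (MmuSTS.3018.1.S1_at), the only one of the gene with a transcript assigned (12 matching probes), was dim. The intact hearts read 17.6, 19.1, 11.2 and 19.5, the block hearts 14.7 and 13.3, and animal 2 was called Absent. The block hearts lay within the intact range there, with a log2 difference of -0.24 and a standard error of 0.41 (limma, adjusted p = 0.903). The difference of -0.87 thus rests on the probe set with no transcript assigned. The mean difference of both probe sets was -0.56, and the cause of the gap between them was not tested.

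NR1D1 (REV-ERBα), the close relative that shares its DNA element with NR1D2, was near the limit of detection. Its probe set (MmuSTS.3017.1.S1_at, chr16:50197560-50198058, minus strand) was Present in animals 11 and 8 only. The intact signals were 60.7, 60.3, 47.1 and 44.6, the block signals 43.5 and 39.1. Both block hearts were the lowest, but animal 14 stood close above animal 2. The log2 difference was -0.35 with a standard error of 0.25 (limma, adjusted p = 0.75). NR1D1 overlaps THRA, the thyroid hormone receptor α gene on the opposite strand, and the annotation notes matches to that strand. A further probe set that names both genes was Absent on all arrays and was not assigned.

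DBP, the PAR bZIP factor whose transcript swings widely over the day in rodent tissues, could not be followed well. Its 3 probe sets carry the symbol CA11, the neighbouring gene, in the annotation and DBP in their design. The brightest (MmugDNA.11252.1.S1_s_at) read 41.2, 70.2, 65.5 and 51.9 without and 48.8 and 63.3 with block, and was Absent on every array. The tested one (MmugDNA.31682.1.S1_at, chr19:54934587-54935158, minus strand) carries notes of cross-hybridization and of matches to the opposite strand in the annotation. It was Present in animals 12, 2 and 8, at 18.4, 16.0, 18.7 and 18.1 without block, 24.3 in animal 2 and 16.1 in animal 8. Its log2 difference of 0.16 (standard error 0.36; limma, adjusted p = 0.928) came from animal 2 alone and turned to -0.14 without it.

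**Figure D1:**
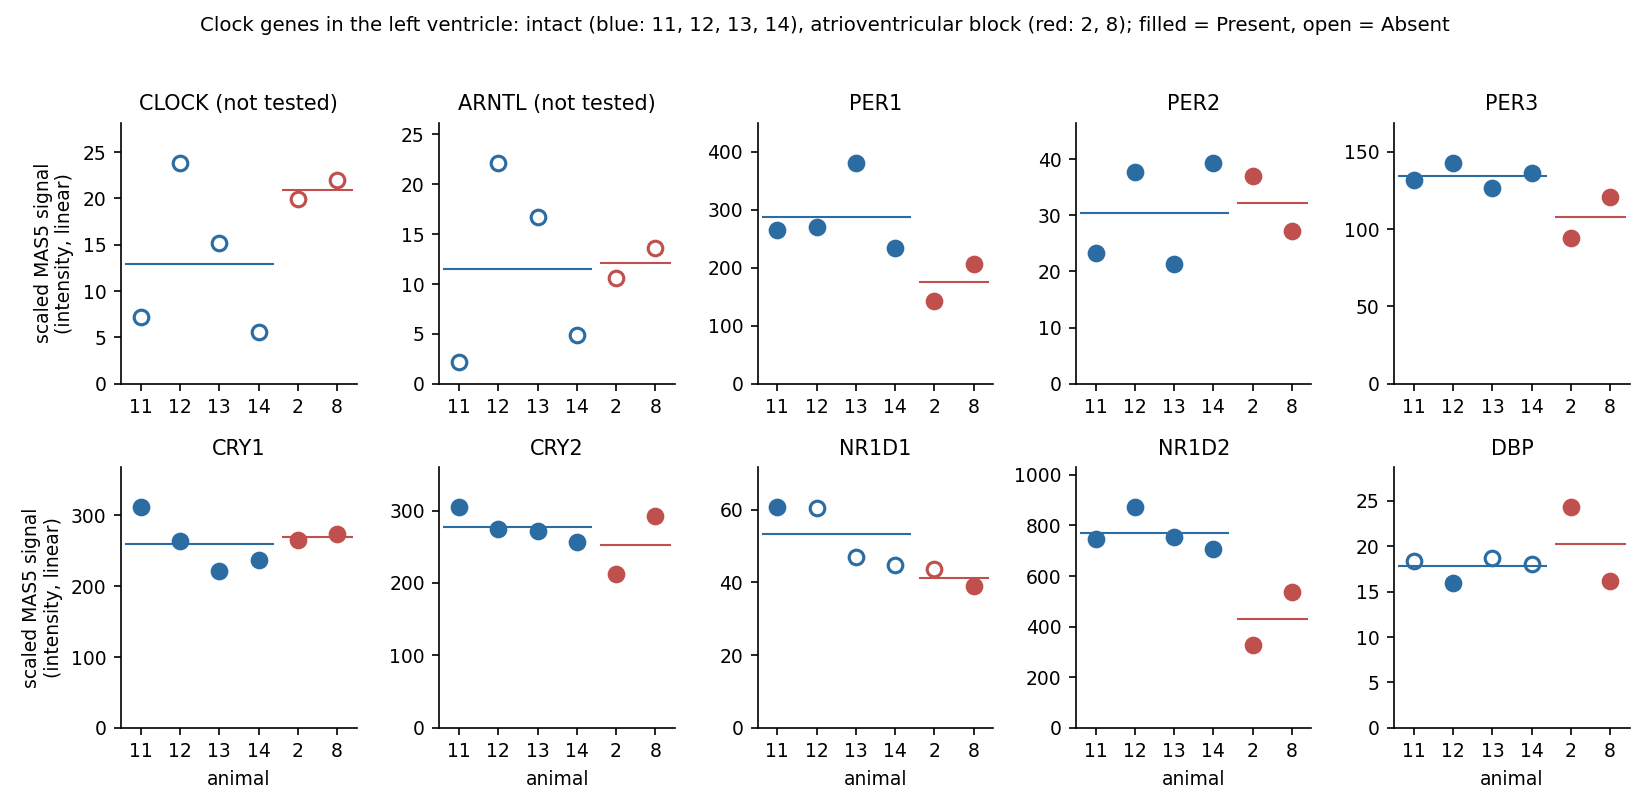
Scaled MAS5 signal (intensity, linear axis from 0) of each clock gene in the 4 intact hearts (blue) and the 2 block hearts (red), with filled points for Present and open points for Absent calls and a line at each group's mean. The brightest tested probe set is drawn, or the brightest where none was tested (CLOCK, ARNTL), and the block hearts lie below all intact hearts for PER1, PER3, NR1D1 and NR1D2, with NR1D2 at 327 and 537 against 705 or more.

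Across the 8 genes tested, both block hearts lay below all intact hearts for 4 (PER1, PER3, NR1D1 and NR1D2) and above them for 0. Of all probe sets tested, 9.48% had both block hearts below and 8.61% had both above. None of the 8 passed the adjusted test with limma, and 2 (NR1D2 and PER1) had an unadjusted p under 0.05, both lower. Of all probe sets 8.24% reached that level, 4.62% lower and 3.62% higher. The median log2 difference of the 8 genes was -0.24, against -0.00 for all probe sets tested, and 5 of 8 differences were below 0 against 50.4% of all. Leaving out an animal can only add genes to this count, so it is no test of the 4. No gene was added without animal 2 or any intact animal, and CRY2 was added without animal 8. The share of all probe sets rises as well, to between 12.2% and 13.6% without 1 intact animal. With a single block heart it was 22.9% without animal 2 and 23.5% without animal 8.

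Animal 2 was below animal 8 for 5 of the 8 genes: PER1, PER3, CRY1, CRY2 and NR1D2. Its signal was 0.426 times the intact mean for NR1D2, 0.505 times for PER1 and 0.704 times for PER3, while animal 8 stood at 0.701, 0.733 and 0.899 times. Animal 2 also had the lowest deposited signal level and the highest GAPDH ratio of the 6 arrays, and the part of these in the results was not tested. Animal 8 had a GAPDH ratio of 3.05, closer to the intact hearts but still above all of them (2.17 to 2.65). In that animal NR1D2 and PER1 were lower than the intact mean by 0.51 and 0.45 on the log2 scale. Markers of other cell types moved as well. The 5 macrophage markers were all higher with block, with a summed signal of 335 to 405 among intact hearts, 395 in animal 2 and 654 in animal 8. Of 4 smooth muscle and pericyte markers tested 3 were higher. For 2 of the 4 (ACTA2 and TAGLN) both block hearts lay above all intact hearts, beside 8.61% of all probe sets tested. The sums were 4250 to 5623 among intact hearts, 5316 in animal 2 and 5907 in animal 8. Of the fibroblast markers 3 of 6 were higher and of the endothelial markers 2 of 5. Of 3 atrial cardiomyocyte markers 1 was higher and 2 were lower, and the 1 T cell marker tested was lower. None of these passed the adjusted test (limma), and the part of cell makeup in the clock gene values was not tested.

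**Figure D2:**
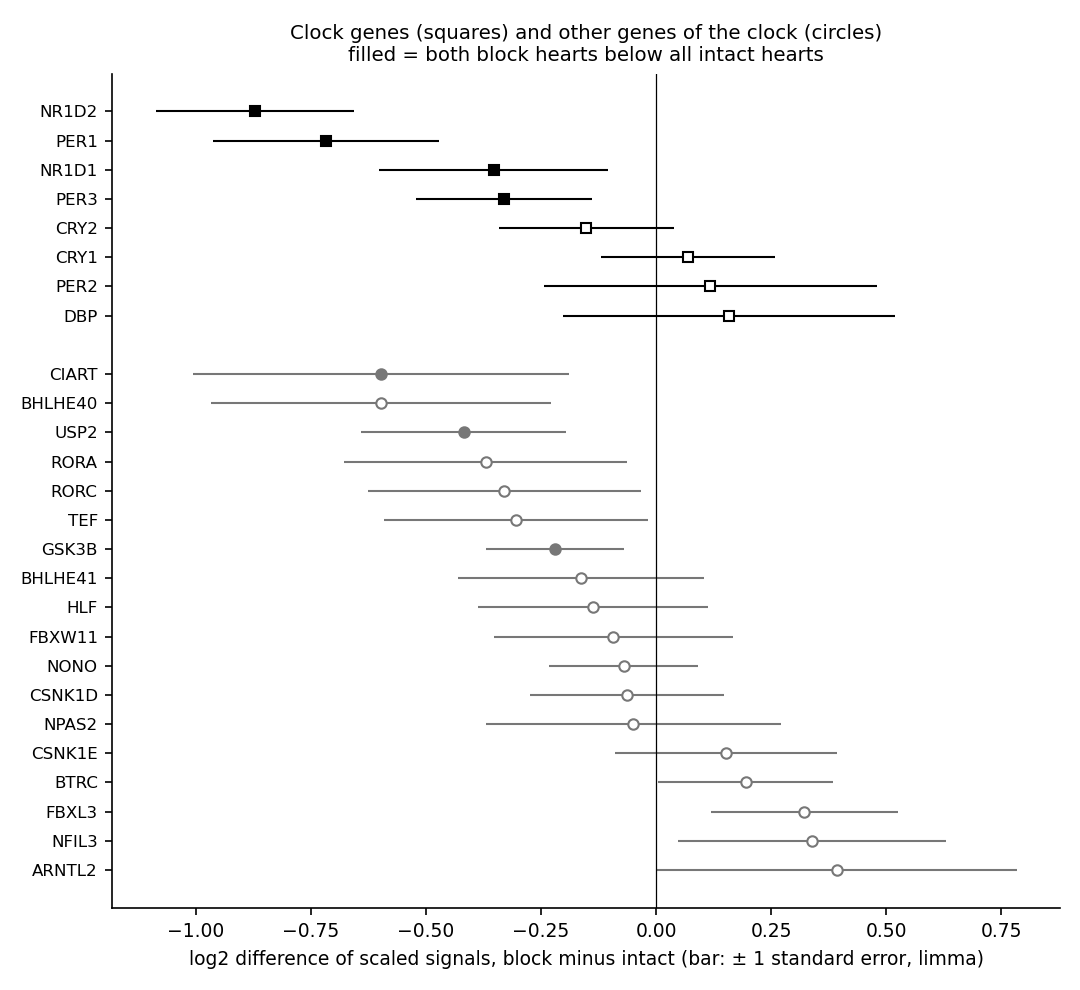
Log2 difference of scaled signals, block minus intact, with its standard error (limma) for the 8 clock genes tested (squares) and 18 other genes of the clock (circles), filled where both block hearts lie below all intact hearts. NR1D2 (-0.87) and PER1 (-0.72) lie farthest from 0, and none of the 26 genes passed the adjusted test.

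The clock genes differed in how much they varied within the intact group. The SD of their log2 signals over the 4 intact hearts had a median of 0.17, against 0.30 for all probe sets tested, and ran from 0.08 for PER3 to 0.46 for PER2. Since dim probe sets vary more, each gene was set beside the probe sets of its own class out of 10 classes of brightness. NR1D2 and CRY2 had SDs of 0.13 and 0.10, and 72.7% and 89.9% of their classes varied as much or more. The SD of PER1 was 0.30, and 31.7% of its class varied as much. For PER2 the share was 35.0%, for NR1D1 73.3%, for CRY1 54.8% and for PER3 96.1%. Each heart was sampled once, so these spreads hold animal, hour and array together.

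**Figure D3:**
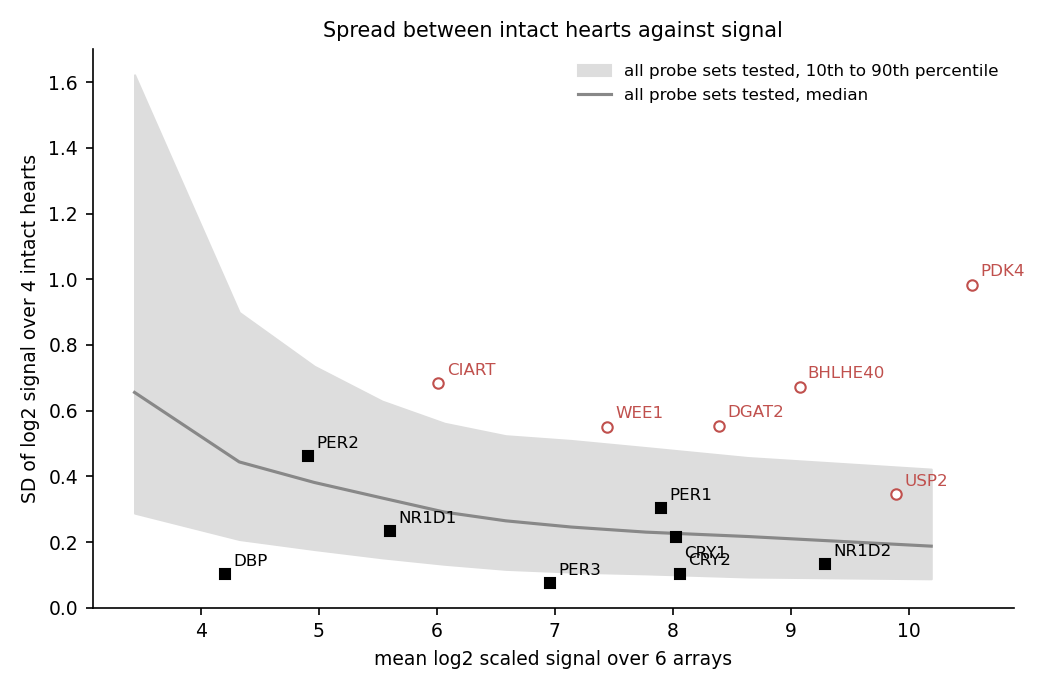
SD of log2 scaled signal over the 4 intact hearts against the mean log2 signal over 6 arrays, for the 8 clock genes tested (squares), for 6 other genes of the clock and its outputs (red circles) and for all probe sets tested (median line and 10th to 90th percentile band). The clock genes lie within or below the band, DBP and PER3 lowest at 0.10 and 0.08. BHLHE40 (0.67), CIART (0.68), PDK4 (0.98), WEE1 (0.55) and DGAT2 (0.55) lie above it, and USP2 (0.35) lies within it.

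Of 20 other genes of the clock, 18 had a tested probe set. None passed the adjusted test and 0 had an unadjusted p under 0.05 with limma, 13 were lower and 5 higher, and their median log2 difference was -0.11. Both block hearts were below all intact hearts for 3 (CIART, USP2 and GSK3B, the last named for this count after its values were seen), which is 3 of 18 beside 9.48% of all probe sets. Without animal 8 this count was 9, beside 23.5%. These counts use the brightest tested probe set of each gene. Other tested probe sets of USP2 overlapped between the groups. For GSK3B, MmugDNA.4894.1.S1_at overlapped (log2 difference 0.21) and MmugDNA.29314.1.S1_at had both block hearts below all intact hearts (-0.46). NPAS2, which stands in for CLOCK as the partner of ARNTL in some tissues, is named after its values were seen, since CLOCK was not detected. It was Present in animals 11 and 8 only, and read 80.5, 67.1, 41.7 and 67.8 without and 47.7 and 76.4 with block, with full overlap.

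Animal 13, the intact heart with the most PER1, was also the highest intact heart for BHLHE40, CIART and USP2, which like PER1 are known in mice to be switched on by CLOCK and ARNTL. Of the 8 clock genes tested, which that pair also drives, only PER1 and DBP were highest in animal 13, and the cause was not tested. BHLHE40 (DEC1), a repressor that competes with CLOCK and ARNTL for E-boxes, read 405, 497, 1188 and 613 without and 389 and 431 with block. Animal 13 stood far above the others, and the log2 difference of -0.60 (standard error 0.37; limma, adjusted p = 0.709) was -0.28 without it. CIART (CHRONO), a further repressor of the pair, read 58.8, 57.6, 151.0 and 59.1 without and 56.8 and 42.3 with block, and its log2 difference of -0.60 (standard error 0.41; limma, adjusted p = 0.738) was -0.26 without animal 13. USP2, a deubiquitinase with a strong daily rhythm in rodent tissues, read 870.1, 873, 1444 and 1096 against 762 and 806, with a log2 difference of -0.42 (standard error 0.22; limma, adjusted p = 0.660) that was -0.26 without animal 13.

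Animal 13 was not the highest intact heart for NR1D2 (753) or NR1D1 (47.1), and it was the lowest for PER2 (21.2), PER3 (126.3) and CRY1 (222). It was the highest intact heart for 9 of the 18 other clock genes and for 2 of the 8 clock genes, against 24.2% of all probe sets tested. It was the lowest for 4 of the 18 and for 3 of the 8, against 24.4% of all probe sets. Adipocyte markers also differed between the hearts. PLIN1, the lipid droplet coat protein, read 612.7 in animal 13 against 17.0 to 18.3 in the other intact hearts, 112 in animal 2 and 31.4 in animal 8. FABP4 read 3845 there, against 653 to 3189 in the other intact hearts, 4702 in animal 2 and 2989 in animal 8. ADIPOQ, at 308, lay within the 239 to 318 of the other intact hearts. The adipocyte list, with 3 of 4 genes tested, summed to 913 to 4766 among intact hearts, 5057 in animal 2 and 3230 in animal 8, and its part in the clock gene values was not tested.

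RORA, an activator of ARNTL that competes with NR1D1 and NR1D2 for their DNA element, read 50.1, 55.3, 71.9 and 35.6 without and 36.8 and 43.3 with block (log2 difference -0.37, standard error 0.31; limma, adjusted p = 0.785). It was -0.21 without animal 13 and -0.55 without animal 14. TEF, a relative of DBP, read 196, 326, 345 and 190.5 against 187 and 228, with a log2 difference of -0.30 and a standard error of 0.29 (limma, adjusted p = 0.806). It lay between -0.45 and -0.16 when 1 animal was left out, lowest in size without animal 13 or animal 2. NFIL3, the repressor that opposes DBP and TEF on D-boxes, stood highest in animal 8 (711) and animal 14 (614), with 423 in animal 2 and 338, 359 and 474 in animals 11, 12 and 13 (log2 difference 0.34, standard error 0.29; limma, adjusted p = 0.789). ARNTL2, a paralog of ARNTL, was dim at 12.2 to 18.3 without and 16.7 and 22.0 with block (limma, adjusted p = 0.818), with a log2 difference of 0.39 that was 0.19 without animal 8. In all 4 genes the groups overlapped.

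**Figure D4:**
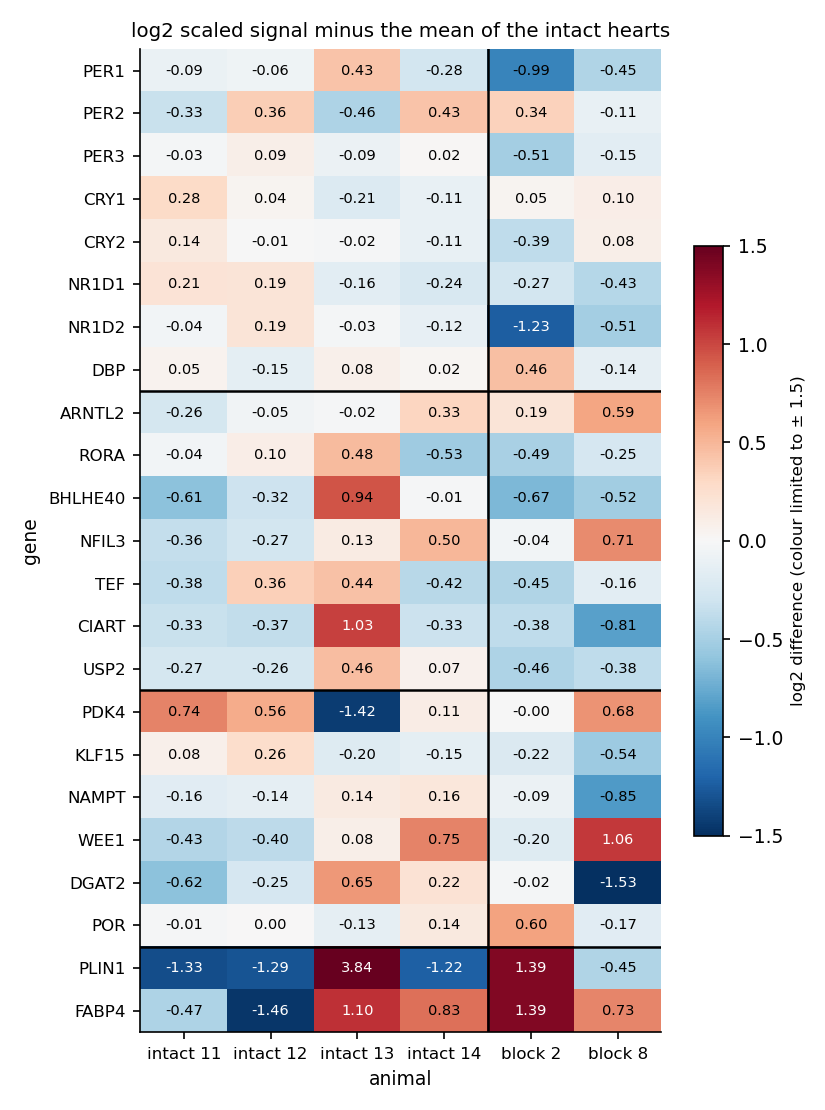
Log2 scaled signal of each heart minus the mean of the 4 intact hearts, for the 8 clock genes tested (top block of rows), 7 other genes of the clock, 6 clock output genes and the adipocyte markers PLIN1 and FABP4 (bottom). Animal 2 shows the lowest values for PER1 (-0.99) and NR1D2 (-1.23), and animal 13 is high for BHLHE40 (0.94) and CIART (1.03) and low for PDK4 (-1.42).

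Outputs of the clock in heart muscle had a median SD of 0.31 over the intact hearts (log2 scale), near the 0.30 of all probe sets tested, beside 0.17 for the clock genes. Of 10 genes on this list 7 were tested, with 0 past the adjusted test and 0 with an unadjusted p under 0.05 (limma), 3 higher and 4 lower, and a median log2 difference of -0.09. PDK4, the kinase that shuts off glucose oxidation and that also follows feeding state, read 2301, 2029, 513 and 1488 without and 1373 and 2199.6 with block. Animal 13 was the lowest and the block hearts lay within the intact range (log2 difference 0.34, standard error 0.53; limma, adjusted p = 0.891).

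KLF15, a transcription factor that sets the rhythm of cardiac repolarization and lipid use in mice, was the only one of the 7 whose brightest tested probe set had both block hearts below all intact ones, at 339 and 272 against 345 to 475 (log2 difference -0.38, standard error 0.19; limma, adjusted p = 0.651). That is 1 of 7 genes, beside 9.48% of all probe sets tested. The KLF15 difference was -0.22 without animal 8 and -0.54 without animal 2. DGAT2, a triglyceride synthesis enzyme, read 261, 337, 630.2 and 467 without block, 395 in animal 2 and 139 in animal 8, and its log2 difference of -0.77 (limma, adjusted p = 0.680) was -0.02 without animal 8. WEE1, a cell cycle kinase under E-box control, was highest in animals 8 (328) and 14 (263.6) and lay between 116 and 167 in the rest (limma, adjusted p = 0.809). NAMPT, which makes a precursor of NAD+, read 834 to 1047 without and 876 and 518 with block (limma, adjusted p = 0.635), on a probe set whose gene name in the annotation differs, and its log2 difference of -0.47 was -0.09 without animal 8. Another of its probe sets (MmugDNA.33218.1.S1_at), likewise named otherwise in the annotation, had both block hearts below all intact hearts, at 179 and 155 against 258 to 448 (log2 difference -0.86; limma, unadjusted p = 0.00737, adjusted p = 0.429). The annotation names it MKRN1 and places it on chromosome 20. The remaining NAMPT probe sets tested overlapped between the groups, with log2 differences of -0.15, -0.19 and -0.35. The -0.15 came from a probe set placed on chromosome 3 (MmugDNA.23622.1.S1_at), at 61.8 to 88.8 without and 78.1 and 60.2 with block. A dimmer probe set of LPL, the lipase that frees fatty acids from lipoproteins, also had both block hearts below, at 1433 and 1311 against 1672 to 4418 (limma, unadjusted p = 0.0425, adjusted p = 0.586), while its brightest one overlapped. These further NAMPT and LPL probe sets were named after their values were seen. POR, a cytochrome P450 reductase, read 209 to 252 without block, 346 in animal 2 and 204 in animal 8 (limma, adjusted p = 0.828).

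Because PER1 and KLF15 also answer to glucocorticoids, genes induced by that hormone were set beside them. Of 8 such genes 6 were tested, 4 of them higher and 2 lower with block, with a median log2 difference of 0.20 and none past the adjusted test (limma). An unadjusted p under 0.05 (limma) was reached by 1 of the 6, higher, beside 8.24% of all probe sets, 3.62% higher. FKBP5, a chaperone partner of the glucocorticoid receptor, read 641.5, 862, 823 and 1113 without and 862 and 1051 with block, within the intact range. ZBTB16, a transcription factor, was the 1 gene with both block hearts above all intact hearts, at 567 and 525 against 325 to 432 (log2 difference 0.56, standard error 0.18; limma, unadjusted p = 0.0118, adjusted p = 0.472). That is 1 of 6 genes, beside 8.61% of all probe sets. DUSP1, KLF9, MT2A and NFKBIA had log2 differences of 0.22, -0.17, 0.34 and -0.18 (limma, adjusted p from 0.759 to 0.836), each with overlapping groups. On a dimmer probe set of KLF9, named after its values were seen, both block hearts lay below all intact hearts (limma, unadjusted p = 0.0478, adjusted p = 0.602). Leaving out 1 animal moved MT2A to 0.15 (animal 12), KLF9 to -0.11 (animal 13) and FKBP5 from 0.17 to 0.03 (animal 8).

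The genes whose log2 profile over the 6 arrays came closest to those of NR1D2 and PER1 were sought among 9775 genes Present on every array, by the root mean square of the differences between centred log2 signals. For NR1D2 these were C5ORF13 (0.11), ASB10 (0.13), SLC26A9 (0.13), SLC5A7 (0.13) and GC20 (0.14), against a median of 0.52 over all genes compared. C5ORF13, for example, read 382 to 494 without and 217 and 312 with block. For PER1 they were MGLL (0.10), RAB11FIP2 (0.13), PKM2 (0.13), LOC702135 (0.14) and C14ORF44 (0.14), against a median of 0.49. MGLL, the lipase that splits monoglycerides, read 579, 562, 689.9 and 508 without and 291 and 465 with block, with the same highest and lowest hearts as PER1. All 10 were picked as the closest, so their small distances and like order of hearts follow from the choice and are no test of a link. None of these 10 genes passed the adjusted test (limma, adjusted p from 0.298 to 0.641).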

How the data were processed

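The authors labelled 100 ng of total RNA from at least 50 mg of tissue by amplification from the 3' end, hybridized 1 Affymetrix Rhesus Macaque Genome Array per animal and computed signals with MAS5 (version not given in the sources used here). The deposited workbook gives for each probe set and array a MAS5 signal (intensity, linear scale, smallest value 1), a detection call, an unadjusted detection p-value and a log2 normalized value, which the authors centred first on the median of the array and then on the intact arrays' median of each probe set (rebuilt within 2.67e-05). A second deposited table repeats the intensity values, and 6 columns that count probe pairs were left out.

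Signals were scaled to a common 2% trimmed mean over all probe sets and log2 was taken. Probe sets Present on at least 2 of 6 arrays were tested with limma 3.58.1 in R 4.3.3 (2-sided; lmFit, then eBayes with a trend of variance on signal), and p-values were adjusted by Benjamini-Hochberg over 22577 probe sets, with 0.05 as the threshold. The labels give each sample as a separate animal and no batch. A gene was represented by its brightest tested probe set. Tables were made with pandas 2.3.3 in Python 3.11.15 and figures with matplotlib 3.10.9. The number of arrays limits the precision. The fit was tested on simulated arrays of the block against intact comparison, with 22577 probe sets of which 200 changed, and recovered 0% at 1.5-fold, 0% at 2-fold, 70% at 4-fold and 85.5% at 8-fold.

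The members and lists were chosen with earlier results of these data known. Every clock gene was named, and from each other list up to 6 genes with the largest difference and up to 3 with the largest spread over the intact hearts. Genes with a like profile were to be sought for ARNTL and DBP. As their brightest probe sets were Absent on all arrays, NR1D2 and PER1 were used in their place, a choice made after seeing the data. For the same reason the difference between NR1D1 and ARNTL was not computed, and promoter motifs were not analysed here. RefSeq gene names of the cynomolgus assembly served only to see which genes neighbour DBP and NR1D1. Alternatives were other scalings, an offset of 32, other filters, eBayes without a trend or robust, averaging the probe sets of a gene, the annotation's symbols and leaving out each animal.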

Additional observations from a re-analysis of the deposited data

Results flagged for a closer look

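CIART in the intact hearts had 1 sample far from the others: animal 13 read 151.0, while animals 11, 12 and 14 read 58.8, 57.6 and 59.1. The gap between animal 13 and its nearest neighbour took up 0.972 of the range of log2 signals, above Dixon's 95% critical value for 4 samples. Chance passes that value in about 1 in 20 groups when the group is chosen beforehand. CIART is also among the genes named for a large spread over these same hearts, so that rate does not hold for it. CIART was Present on all 6 arrays.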

How the results depend on the processing

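No paired analysis was possible because the groups share no replicate numbers. None of the clock genes and none of the 18 other clock genes passed the adjusted test under any alternative run. Over all probe sets the 5 calls became 0 with quantile normalization, with the authors' normalized columns and with eBayes without a trend, 8 with an offset of 32, and between 0 and 4 when 1 animal was left out; the cause was not tested. The median log2 difference of the clock genes, -0.24, ran from -0.33 without animal 8 to -0.15 without animal 2. Leaving out 1 animal gave differences of both signs for CRY2 (range -0.39 to 0.083), DBP (-0.14 to 0.46), PER2 (-0.11 to 0.34), DUSP1 (-0.19 to 0.62), NFIL3 (-0.037 to 0.71), NFKBIA (-0.41 to 0.049), PDK4 (-0.14 to 0.68), POR (-0.17 to 0.60) and WEE1 (-0.20 to 1.06). NR1D2 stayed between -1.23 and -0.51, PER1 between -0.99 and -0.45, PER3 between -0.51 and -0.15 and NR1D1 between -0.43 and -0.21, with adjusted p of 0.155 or more for each. The spread of the clock genes over the intact hearts kept a median between 0.14 and 0.23. Dim signals, with CLOCK and ARNTL Absent, limit what can be said of the activating pair.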
